A study of Mus musculus with 6 samples.

Results

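The constitutive proteasome genes are described here, in bulk RNA-seq libraries of γδ T cells sorted from mouse gastrointestinal stromal tumor (GIST). Members were taken by name, as genes of the Psma, Psmb, Psmc and Psmd families with pseudogenes and the immunoproteasome genes Psmb8, Psmb9 and Psmb10 left out, which gave 37 of the 53153 gene symbols in the table. They comprise 16 core particle genes (8 of the alpha ring and 8 of the beta ring), 20 regulatory particle genes (6 ATPases and 14 non-ATPases) and Psmc3ip, which shares the name but encodes a meiotic recombination factor and no subunit. Of the 37, 36 passed the filter on low counts. Psmb11 had 0 counts in all 6 libraries, and a count of 0 allows up to 3 counts, or 0.119 to 0.141 CPM (counts scaled by library size).

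The 3 imatinib libraries came from mice given imatinib in the drinking water (600 mg/L, 1 week), and the 3 vehicle libraries from mice given vehicle. Both groups were Kit V558del/+ mice on C57BL/6J, aged 8 to 10 weeks, whose activating Kit mutation gives rise to an intestinal GIST, and imatinib inhibits the KIT kinase. CD45+CD3+NK1.1-TCRγδ+ cells were sorted and polyA RNA was sequenced. All 6 libraries carry the same batch label, and the labels do not tie libraries to separate mice, so the spread behind the p-values may be technical. A text field of the series names regulatory T cells instead, and Foxp3, their defining gene, had 0 to 0.223 CPM in imatinib and 0.318 to 0.775 CPM in vehicle libraries.

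The proteasome degrades proteins tagged with ubiquitin. Its core particle is a barrel of stacked alpha and beta rings, and the protease sites face inward on the beta subunits encoded by Psmb5, Psmb6 and Psmb7. The regulatory particle caps the barrel, recognizes ubiquitin chains, removes them, and unfolds the substrate with a ring of ATPases. In lymphocytes the catalytic beta subunits can be replaced by the immunoproteasome subunits, which changes the peptides made for antigen presentation.

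Libraries held 21333897 to 23013208 counts on imatinib and 21493848 to 25214210 on vehicle, and the members took 0.239% to 0.261% of them on imatinib and 0.229% to 0.239% on vehicle. The gamma-delta chain gene Trdc had 1237, 850 and 1038 CPM in imatinib libraries, against 505, 673 and 373 CPM in vehicle libraries. Summed with Cd3d, Cd3e and Cd3g, which all T cells share, it gave 1499 to 2147 CPM on imatinib and 728 to 1308 CPM on vehicle, with no overlap. Alpha-beta T cell markers (6 of 6 in the table) summed to 432 to 533 CPM on imatinib and 346 to 364 CPM on vehicle, also with no overlap. Of these, Trac, Trbc1 and Trbc2 were called higher. Cd8a, Cd8b1 and Cd4 were below 0 and did not pass, at -1.31, -1.24 and -0.27 on the log2 scale (edgeR adjusted p of 0.057, 0.16 and 0.45). Genes of other cell types were also present in the sorted material. Summed B and plasma cell markers (4 of 4 in the table) had 18109 to 27313 CPM on imatinib and 3236 to 26717 CPM on vehicle, and summed macrophage markers (6 of 6) had 4546 to 9016 CPM on imatinib and 8776 to 11513 CPM on vehicle. Fibroblast markers (4 of 4) had 322 to 636 CPM on imatinib and 65.4 to 225 CPM on vehicle, markers of GIST and interstitial cells of Cajal (3 of 3) had 77.1 to 282 CPM on imatinib and 25.5 to 29.9 CPM on vehicle, and dendritic cell markers (3 of 3) had 330 to 705 CPM on imatinib and 721 to 1022 CPM on vehicle. Of the GIST and Cajal cell markers, Kit and Etv1 were called higher, at 2.70 and 1.86 on the log2 scale (edgeR adjusted p of 0.017 and 0.043). Ano1 was at 3.56 and did not pass (0.056). The dendritic markers did not move together. Itgax was at -0.92 on the log2 scale, while Flt3 was at 0.57 and Xcr1 at 0.18, and none of them was called. None of the markers of other cell types was at 0 in all libraries. Their part in the proteasome results was not tested, and since every cell type makes proteasomes, a different mix of cells and a different level per cell cannot be told apart in these bulk libraries.

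Of the 35 tested subunit genes, 2 were higher on imatinib and 0 were lower at an adjusted p under 0.05 (edgeR quasi-likelihood test, adjusted over all 16621 tested genes). They were Psmb1 in the core particle and Psmd8 in the regulatory particle. The 5.71% of tested subunit genes called higher was near the background, since 6.15% of all tested genes were called higher and 8.42% lower. At an unadjusted p under 0.05, 6 subunit genes were higher (17.1%) and 0 lower, against 14.2% of all genes higher and 16.8% lower. DESeq2 called 3 higher (Psma7, Psmb1 and Psmd8, 8.57%) and 0 lower, against 9.83% of all genes higher and 12.2% lower. The shares called higher were near the background by each of these rules. All 3 imatinib libraries lay above all 3 vehicle libraries for 45.7% of the tested subunit genes, against 17.5% of all genes, and below them for 5.71%, against 20.2% of all genes. The median standard error (SE) was 0.11 on the log2 scale for the subunit genes, against 0.216 for all tested genes. Genes with less noise separate at a smaller shift, and these shares are not matched for noise. Fold changes were above 0 for 85.7% of the subunit genes and 51.2% of all genes with the usual scaling, and for 0 of 35 subunit genes when libraries were scaled to their CD3 gene counts, which moves the median log2 fold change of all genes to -0.72. Relative to the median of all genes, 28 of 35 subunit genes were above it with the usual scaling and 27 with CD3 scaling.

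**Figure D1:**
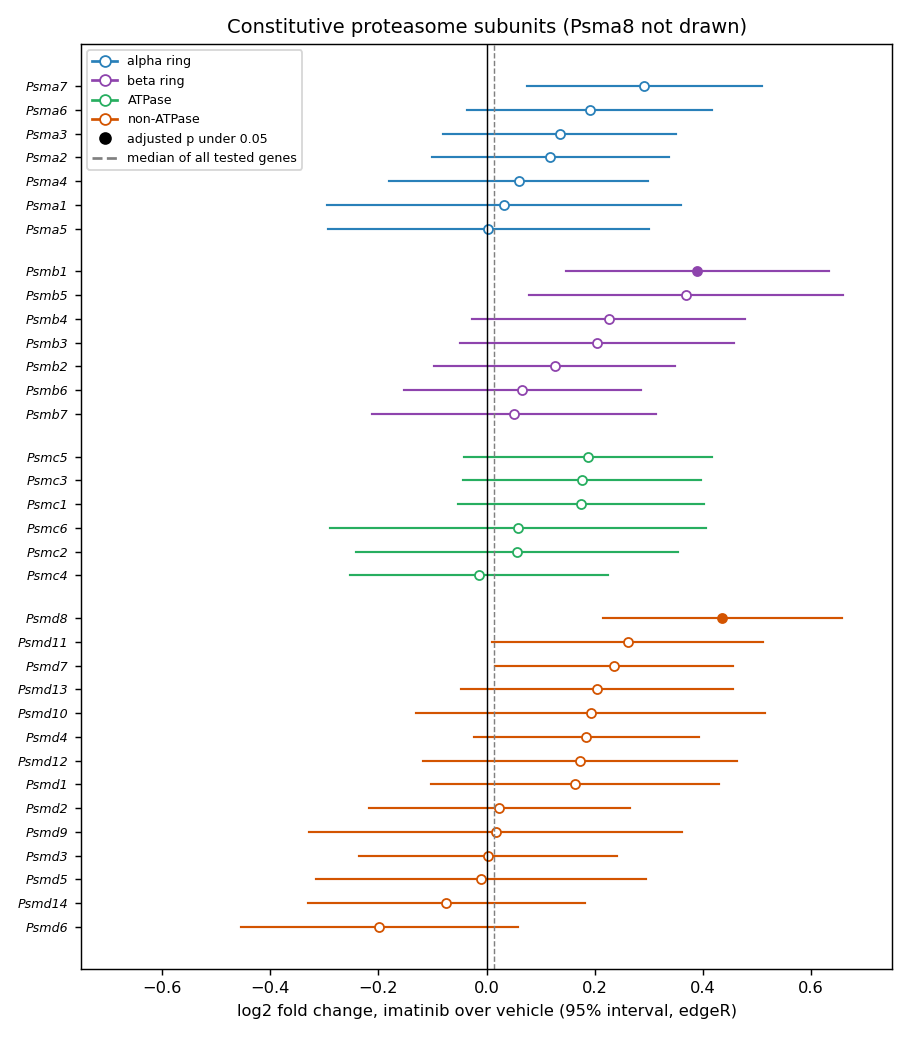
Log2 fold change of imatinib over vehicle for 34 tested subunit genes, grouped into alpha ring, beta ring, ATPase and non-ATPase genes, with points at the estimate and bars for the 95% interval of edgeR (the poorly measured Psma8 is left out). Filled points mark Psmb1 (0.39) and Psmd8 (0.44), the 2 genes with an adjusted p under 0.05, most other points lie between 0 and 0.3, and under scaling to CD3 counts, which moves the median of all genes to -0.72, all 35 tested subunit genes lie below 0 and 27 of them above that median.

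The particles were compared by their median fold changes, as a description. The median log2 fold change was 0.13 over the 15 tested core genes and 0.17 over the 20 regulatory genes, beside 0.014 over all tested genes. In each particle 1 gene was called higher and 0 lower. The share called higher was 6.67% in the core and 5% in the regulatory particle, against 6.15% higher and 8.42% lower over all genes. Imatinib libraries lay above all vehicle libraries for 8 genes of each, or 53.3% of core and 40% of regulatory genes, against 17.5% of all genes. This background is not matched for noise (median SE of 0.107 in the core and 0.11 in the regulatory particle, against 0.216). By ring, the median was 0.089 for alpha and 0.20 for beta genes, and 0.12 for ATPase and 0.17 for non-ATPase genes. The order of the particles was not stable. Without imatinib replicate 1 the medians were 0.15 for the core and 0.14 for the regulatory particle, without imatinib replicate 2 they were 0.096 and 0.065, and without vehicle replicate 2 they were 0.14 and 0.13, so the core median was the higher in 3 of the 6 fits that left out a library. Separately, scaling to CD3 counts gave medians of -0.59 for the core and -0.565 for the regulatory particle, both still above the -0.72 of all genes.

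Summed core particle expression was 1071, 1161 and 1072 CPM in imatinib libraries, against 1002, 955 and 984 CPM in vehicle libraries. The regulatory particle summed to 1446, 1488 and 1376 CPM in imatinib libraries, against 1367, 1276 and 1309.6 CPM in vehicle libraries. Every imatinib library was above every vehicle library in both sums, by 12.4% on average for the core (1101 ± 51.5 against 980.2 ± 23.5 CPM, SD, n = 3 each) and by 9.04% for the regulatory particle (1437 ± 56.5 against 1318 ± 46.2 CPM), but this order does not hold relative to the summed CD3 genes. Core over CD3 was 1.18, 1.79 and 1.27 in imatinib libraries, against 1.96, 1.503 and 2.77 in vehicle libraries, with overlap and a lower imatinib mean. The summed CD3 genes were themselves 60.1% higher on imatinib (801 ± 135 against 500 ± 141 CPM, SD, n = 3 each), with no overlap. A sum that rises less than the CD3 genes tends to a lower ratio, so nothing on the particles is read from it.

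The balance of the particles was measured as the ratio of summed CPM per kilobase of transcript, core over regulatory, which does not depend on library scaling. It was 1.18, 1.23 and 1.23 in imatinib libraries, against 1.18, 1.18 and 1.19 in vehicle libraries. Imatinib replicate 1 lay among the vehicle libraries, so the groups overlapped and the difference of 0.030 in the means (1.21 ± 0.030 against 1.18 ± 0.0062, SD, n = 3 each) is about the SD on imatinib. With exon-union lengths the ratio was 1.04, 1.10 and 1.09 in imatinib libraries, against 1.06, 1.04 and 1.06 in vehicle libraries, also with overlap. The ratio of alpha to beta ring expression also overlapped, at 0.806, 0.861 and 0.816 in imatinib libraries and 0.799, 0.859 and 0.943 in vehicle libraries.

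**Figure D2:**
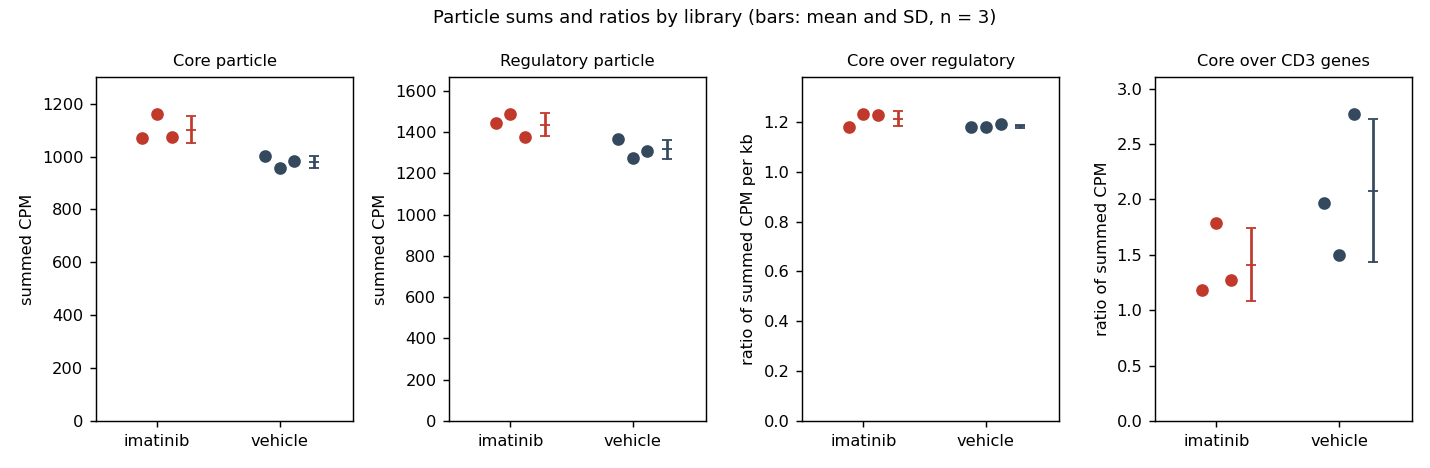
Summed CPM of core and regulatory genes, their ratio per kilobase, and core expression over the summed CD3 genes, with 1 point per library and the mean and SD beside them (n = 3 each, imatinib left). Imatinib libraries are above all vehicle libraries in both sums (at least 1071 against at most 1002 CPM for the core), the core to regulatory ratio overlaps, and relative to CD3 genes the imatinib mean is the lower. The summed CD3 genes were themselves 60.1% higher on imatinib.

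Among alpha ring genes, which form the outer rings and the gate of the barrel, Psma7 had the smallest p. It had 101, 112 and 101 CPM in imatinib libraries, against 87.2, 84.4 and 85.9 CPM in vehicle libraries. All imatinib values were above all vehicle values, but the log2 fold change of 0.29 ± 0.096 (SE) did not pass the test (adjusted p = 0.074). DESeq2 gave an adjusted p of 0.0498. Psma1 and Psma5 had log2 fold changes of 0.032 and 0.0035, and the remaining constitutive alpha genes lay between these and Psma7.

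Psmb1, a beta ring subunit without a protease site, rose on imatinib. It had 107, 117 and 116 CPM in imatinib libraries, against 95.5, 85.7 and 79.4 CPM in vehicle libraries. The groups did not overlap, and vehicle replicate 1 was closest to the imatinib libraries. The log2 fold change was 0.39 ± 0.11 (SE), with an adjusted p of 0.044. This call was lost whichever 1 of the 6 libraries was left out (adjusted p from 0.054 to 0.15), without the filter on low counts (0.056) and with scaling to CD3 counts (log2 fold change -0.32, adjusted p = 0.48).

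None of the 3 catalytic genes was called, and Psmb5 had the highest fold change of them. Psmb5, which encodes the chymotrypsin-like site, had 48.1, 49.2 and 41.8 CPM in imatinib libraries, against 40.2, 32.1 and 35.5 CPM in vehicle libraries. The groups were separate by a narrow margin, and the log2 fold change of 0.37 ± 0.13 (SE) missed the threshold (adjusted p = 0.086). Psmb6, which encodes the caspase-like site, had 74.0, 77.8 and 81.0 CPM in imatinib libraries, against 77.2, 70.8 and 74.3 CPM in vehicle libraries. Psmb7, which encodes the trypsin-like site, had 35.6, 30.5 and 31.5 CPM in imatinib libraries, against 32.9, 30.2 and 31.0 CPM in vehicle libraries. Both overlapped between groups, with 95% intervals of the log2 fold change from -0.15 to 0.28 for Psmb6 and from -0.21 to 0.31 for Psmb7. Psmb7 shares 405 exon bases with Nek6 on the opposite strand, so its counts are uncertain where the counting ignored strand.

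The immunoproteasome counterparts were not called. Psmb8, which replaces the Psmb5 product, had 204, 267 and 232 CPM in imatinib libraries, against 233, 195 and 209 CPM in vehicle libraries (log2 fold change 0.14, adjusted p = 0.49). The log2 fold changes of Psmb9 and Psmb10 were -0.12 (adjusted p = 0.58) and 0.055 (adjusted p = 0.85), and none of the 3 had an unadjusted p under 0.05 or was called by DESeq2. Per kilobase, the ratio of Psmb8 to Psmb5 was 2.34, 2.99 and 3.06 in imatinib libraries, against 3.21, 3.36 and 3.24 in vehicle libraries. All imatinib ratios were below all vehicle ratios, while Psmb9 over Psmb6 and Psmb10 over Psmb7 overlapped. Immunoproteasome genes made up 63.2% ± 3.5 of the per-kilobase catalytic expression on imatinib and 64.9% ± 0.43 on vehicle (SD, n = 3 each), with overlap.

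In the ATPase ring, which pulls substrates into the barrel, 0 of 6 genes were called in either direction by edgeR or DESeq2, and 0 had an unadjusted p under 0.05. Psmc5 had the smallest p, with 84.4, 80.7 and 72.9 CPM in imatinib libraries, against 71.9, 70.0 and 67.1 CPM in vehicle libraries. Its groups did not overlap, but by a margin small beside the spread on imatinib, and the log2 fold change of 0.19 ± 0.10 (SE) did not pass (adjusted p = 0.24). Psmc4 was the lowest of the ring at -0.014.

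Psmd8, a non-ATPase subunit of the regulatory particle lid, had the highest log2 fold change of all members. It had 111, 115 and 104 CPM in imatinib libraries, against 83.3, 84.0 and 77.0 CPM in vehicle libraries. The gap between the groups was wider than the range within either. The log2 fold change was 0.44 ± 0.097 (SE), with an adjusted p of 0.023. It stayed called without imatinib replicate 1 or 2 (adjusted p of 0.045 and 0.044) and was lost without imatinib replicate 3 (0.058) or any 1 vehicle library (0.069 to 0.091), and scaling to CD3 counts gave a log2 fold change of -0.28 (adjusted p = 0.54).

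The lid deubiquitinase and the ubiquitin receptors were not called. Psmd14, which cuts ubiquitin chains off the substrate, had 61.0, 51.8 and 51.1 CPM in imatinib libraries, against 55.3, 56.1 and 61.2 CPM in vehicle libraries. Psmd2, the large base scaffold that also binds ubiquitin-like domains, had 174, 159 and 159 CPM in imatinib libraries, against 177, 149 and 157 CPM in vehicle libraries. Both overlapped, with 95% intervals of the log2 fold change from -0.33 to 0.18 and from -0.22 to 0.27. Psmd4, a ubiquitin receptor, had 99.6, 103 and 105 CPM in imatinib libraries, against 91.7, 91.5 and 87.7 CPM in vehicle libraries. Its groups were separate, with a log2 fold change of 0.18 ± 0.091 (SE) that did not pass (adjusted p = 0.21).

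Psmd6, another lid subunit, was the lowest regulatory gene. It had 32.7, 36.75 and 31.9 CPM in imatinib libraries, against 38.9, 36.79 and 40.6 CPM in vehicle libraries. The highest imatinib and lowest vehicle values nearly met, and the log2 fold change of -0.20 ± 0.11 (SE) did not pass (adjusted p = 0.27). Psmd11 (0.26) and Psmd7 (0.24) were the next highest after Psmd8 and did not pass after adjustment (adjusted p of 0.15 and 0.14).

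**Figure D3:**
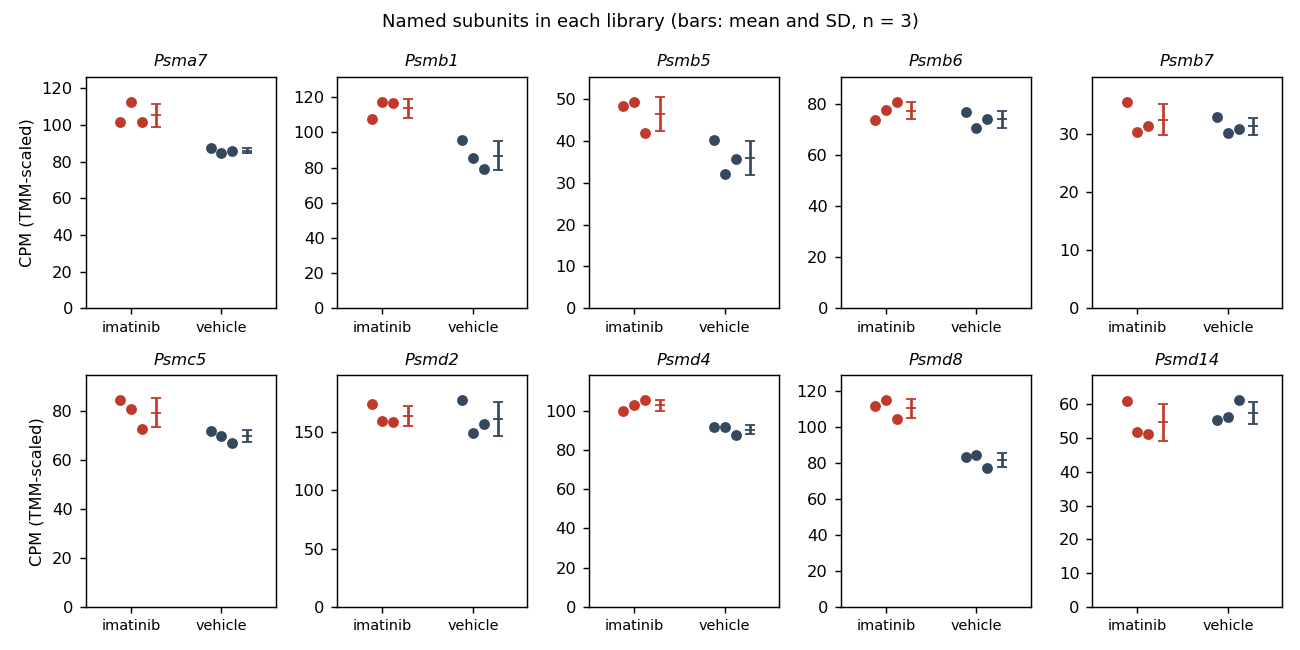
CPM of 10 named subunit genes in each library, with the mean and SD beside the points (n = 3 each, imatinib left of vehicle, axes from 0). The called genes Psmd8 and Psmb1 do not overlap between groups, with lowest imatinib values of 104 and 107 CPM above highest vehicle values of 84.0 and 95.5 CPM. Psma7, Psmb5, Psmc5 and Psmd4, which were not called by edgeR, do not overlap either, while Psmb6, Psmb7, Psmd2 and Psmd14 overlap.

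The members known for restricted expression were barely detected. Psma8, the testis alpha subunit, had 14, 1 and 15 counts in imatinib libraries, against 20, 18 and 32 counts in vehicle libraries. Its log2 fold change of -1.14 had an SE of 0.80 (adjusted p = 0.37), so no direction could be drawn at this depth. Psmb11, the thymus beta subunit, had no counts. Psmc3ip had 3.25, 2.92 and 2.76 CPM in imatinib libraries, against 2.78, 3.54 and 4.48 CPM in vehicle libraries, which overlap, and it shares 385 exon bases with Mlx on the opposite strand.

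Levels ranged more widely between subunits than between treatments. Per kilobase of the principal transcript, and over all 6 libraries, the 14 expressed core genes ran from Psmb3 (110.3 CPM per kb) and Psma7 (104) to Psmb7 (27.5) and Psma3 (22.5). Neighbours in this order overlapped over libraries except below Psma5 and below Psmb7. The regulatory genes ran from Psmc3 (76.8 CPM per kb) and Psmd4 (72.4) to Psmd10 (13.4), Psmd9 (7.78) and Psmd5 (6.37), with gaps below Psmd11 and below Psmd10. The 3 lowest encode chaperones that assist assembly of the ATPase ring and are not part of the finished particle, and without them the regulatory median log2 fold change was 0.17. The order depends on the length used. With the union of all annotated exons as length, Psmb3 had 36.7 and Psma7 31.1 CPM per kb, Psma6 (53.7) and Psmb2 (50.9) were the highest core genes and Psmb7 (9.33) the lowest. Psmc5 (53.5) was then the highest regulatory gene, Psmd10 (13.0) lay above Psmd6, Psmd11 and Psmd1, and Psmd5 (3.87) and Psmd9 (2.79) remained the 2 lowest. On the opposite strand, Psmc3 shares 215 exon bases with Slc39a13, Psmd13 342 with Sirt3 and Psmd9 1849 with Gm26745. The levels of these regulatory genes are uncertain where the counting ignored strand.

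**Figure D4:**
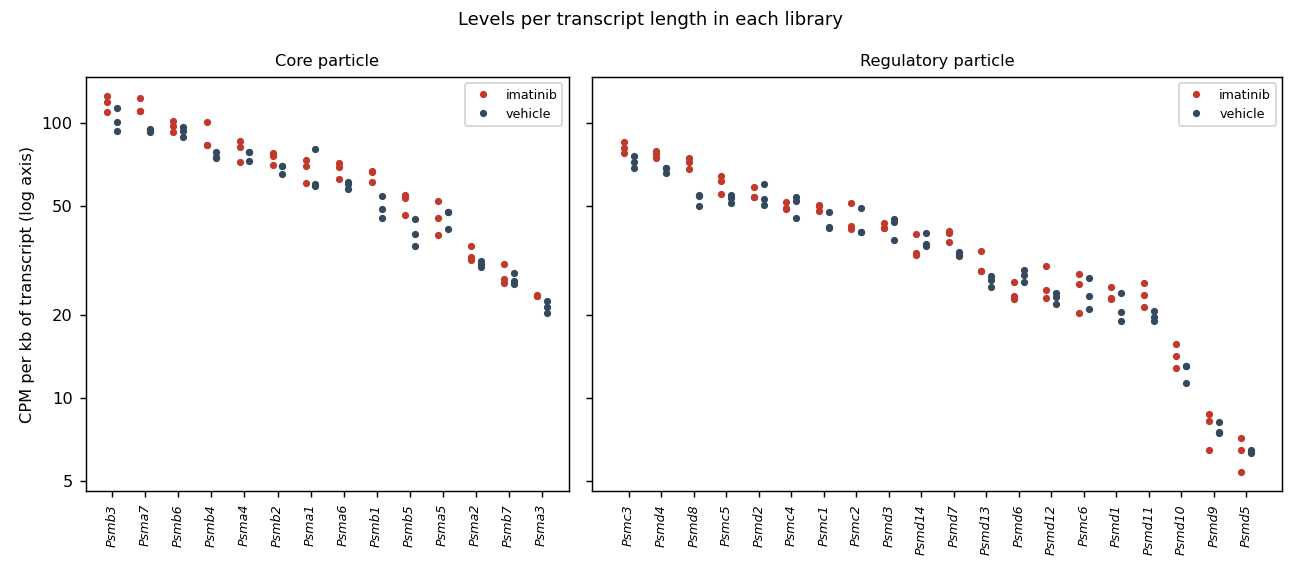
CPM per kilobase of transcript (log axis) of each expressed core and regulatory gene in every library, ordered by the mean over 6 libraries, imatinib points left of vehicle points. Core genes span 22.5 to 110.3 CPM per kb, and Psmd10, Psmd9 and Psmd5 lie below all other regulatory genes, which for Psmd10 does not hold with exon-union lengths (13.0 CPM per kb, against 9.72 for Psmd11).

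Promoters were read because NRF1, encoded by Nfe2l1, is known to drive proteasome genes through antioxidant response elements. RefSeq promoter windows (GRCm38.p6, 250 bases before to 50 after the start) were present for 29 members, but not for the called gene Psmb1. The element core TGACNNNGC, searched on both strands, matched in 5 of the 29 members (17.2%), against 14% of all genes with a window. They were Psmb5, Psmb6, Psmc6, Psmd9 and Psmd12, with a median log2 fold change of 0.066, against 0.16 for the 23 tested members with a window and no match. CCAAT, on both strands, was in 41.4% of the members and 41.1% of all genes. The windows before the start of the called gene Psmd8 (chr7:29180702-29180923, minus strand, no match) and of the catalytic genes Psmb5 (chr14:54618023-54618245, minus strand) and Psmb6 (chr11:70525107-70525356, plus strand) are shown 5′ to 3′ without annotated exon bases, with the match to the element core in capitals.
Psmd8: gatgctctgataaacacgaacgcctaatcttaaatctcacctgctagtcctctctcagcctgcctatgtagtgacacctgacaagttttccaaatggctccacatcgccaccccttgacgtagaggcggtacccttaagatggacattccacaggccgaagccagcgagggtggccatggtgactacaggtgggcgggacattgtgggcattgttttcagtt
Psmb5: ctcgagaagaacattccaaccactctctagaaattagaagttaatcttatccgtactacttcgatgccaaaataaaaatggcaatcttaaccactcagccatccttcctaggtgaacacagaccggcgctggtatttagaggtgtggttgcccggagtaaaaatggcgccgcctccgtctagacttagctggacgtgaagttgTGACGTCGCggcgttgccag
Psmb6: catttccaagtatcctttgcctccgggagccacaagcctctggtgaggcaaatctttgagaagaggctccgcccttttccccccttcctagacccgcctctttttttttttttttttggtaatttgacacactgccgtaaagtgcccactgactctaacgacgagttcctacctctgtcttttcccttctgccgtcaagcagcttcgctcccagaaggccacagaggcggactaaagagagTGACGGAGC
The match lies close to the start in Psmb5 and directly before it in Psmb6, and these 2 genes had log2 fold changes of 0.37 and 0.066.

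Genes that work with the proteasome were measured in the same fit. Of 5 activators and inhibitors, 1 was called lower and 0 higher, and DESeq2 also called 1 higher, Psmf1 (edgeR log2 fold change 0.36, adjusted p = 0.065). Over all tested genes, edgeR called 6.15% higher and 8.42% lower, and DESeq2 9.83% and 12.2%, so nothing is read from so short a list. Psme4, the PA200 activator, fell on imatinib, with 56.0, 61.4 and 53.1 CPM in imatinib libraries, against 76.2, 69.8 and 73.1 CPM in vehicle libraries. The groups did not overlap, and the log2 fold change was -0.36 ± 0.10 (SE, adjusted p = 0.048). It stayed called only without imatinib replicate 2 (0.030) among the 6 fits that left out a library, and the others gave 0.10 to 0.14. The call was also lost without the filter on low counts (0.066).

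Of 10 genes of ubiquitin and its activation, 2 were called higher and 0 lower (3 and 0 by DESeq2, with Uba1 added, and 3 and 1 at an unadjusted p under 0.05). Over all tested genes, the shares were 6.15% higher and 8.42% lower by edgeR, 9.83% and 12.2% by DESeq2, and 14.2% and 16.8% at an unadjusted p under 0.05, and with so few genes in a list nothing is read from its share. Rps27a, which encodes ubiquitin fused to a ribosomal protein, had 631, 773 and 706 CPM in imatinib libraries, against 521, 481 and 538 CPM in vehicle libraries (log2 fold change 0.45 ± 0.11, SE, adjusted p = 0.032). Ube2r2, a ubiquitin-conjugating enzyme, had 89.2, 92.1 and 89.2 CPM in imatinib libraries, against 67.4, 71.7 and 66.6 CPM in vehicle libraries (0.39 ± 0.093, SE, adjusted p = 0.027). Neither pair of groups overlapped, but each call remained in only 1 of the 6 fits with a library left out (without imatinib replicate 1, adjusted p of 0.021 and 0.048, against 0.069 to 0.11 and 0.051 to 0.11 in the others), and with scaling to CD3 counts both were below 0 (-0.28 and -0.32). Without the filter on low counts Ube2r2 had an adjusted p of 0.051 and Rps27a stayed called (0.0089). Rps27a has near-identical copies in the genome, so its counts are uncertain.

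The other lists held 0 genes called by edgeR in either direction, while DESeq2 called Ddi2 of the NRF1 axis lower and Ubxn1 higher. At an unadjusted p under 0.05, edgeR had 1 gene higher and 2 lower in the NRF1 axis, 1 higher among p97 genes and 0 in the rest. Among 5 core assembly chaperones the median log2 fold change was 0.040, with Pomp at 0.040 and Psmg2 at -0.092. Adrm1 and Sem1, regulatory subunits outside the Psm naming, were at -0.14 and -0.014. In the NRF1 axis list of 5 genes, Nfe2l1 was at 0.12 (adjusted p = 0.57). Nfe2l2, which encodes the separate factor NRF2, was at -0.48 (adjusted p = 0.14). Ddi2 was at -0.36 (adjusted p = 0.056), Ngly1 at 0.34 (adjusted p = 0.070) and Aff4 at -0.15 (adjusted p = 0.52). Among 10 proteasome-associated enzymes and shuttle factors, Rad23b was at 0.18 and Ubqln1 at 0.12, and among 7 genes of the p97 segregase, which extracts ubiquitinated proteins, Vcp was at 0.19 and Ubxn1 at 0.30 (adjusted p = 0.073).

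**Figure D5:**
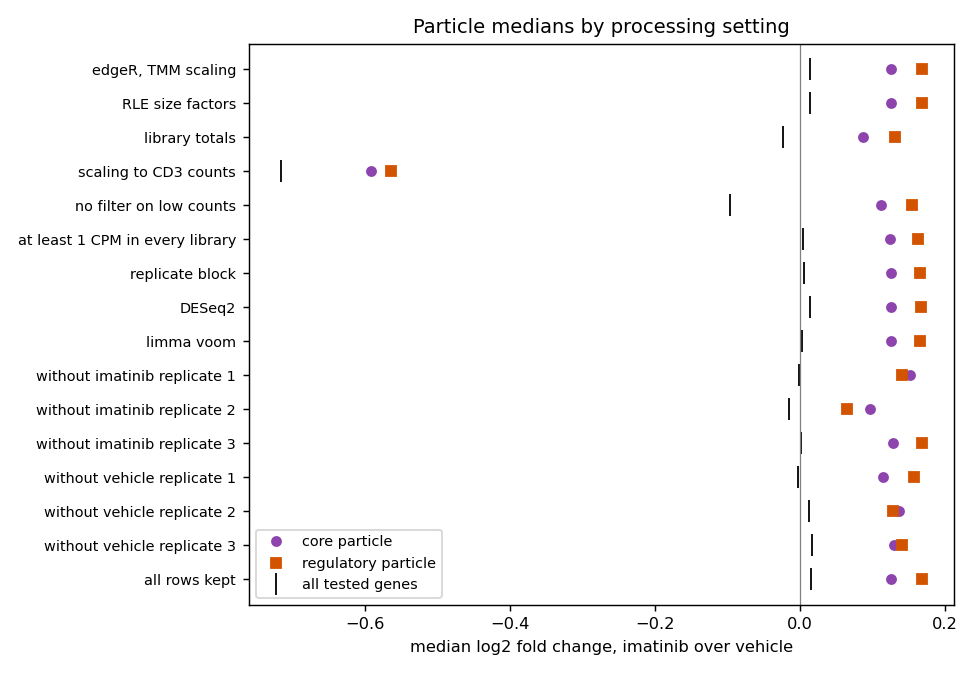
Median log2 fold change of imatinib over vehicle for core genes, regulatory genes and all tested genes, under each processing setting. Both particle medians lie to the right of the median of all genes in all 16 settings drawn, and scaling to CD3 counts turns each of these medians negative (-0.59, -0.565 and -0.72).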

How the data were processed

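Bulk RNA-seq counts of 6 libraries were used. The authors ran STAR with its defaults against GRCm38 and deposited counts per gene made by featureCounts. For annotation, strand setting and multiply matching reads, the choice is not given in the sources used. Of 57332 rows, 3016 without a gene name (0.118% to 0.158% of counts) were left out, 1013 exact repeats were counted once and rows of 78 symbols were summed. The table's 3 columns that match none of the samples were left unread. All pairs of libraries differed beyond sampling noise.

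Imatinib was compared with vehicle in edgeR 4.0.16 under R 4.3.3, using the default filter on low counts (16621 genes kept), TMM factors and the robust quasi-likelihood test without a covariate, with Benjamini-Hochberg adjustment over all tested genes. The coefficient of variation between libraries was 29.1%. The script was tested on simulated data. CPM are TMM-scaled, and levels per kilobase use the principal transcript of GENCODE M21. Alternatives were DESeq2 1.42.0, limma voom (limma 3.58.1), other scalings and filters, a replicate block and leaving out each library. Scaling to CD3 counts had been used in an earlier look at these data. The members and gene lists were chosen with earlier results of these data known. Named genes were the catalytic genes, the gene of smallest p in each ring or class, Psmd2, Psmd4, Psmd14, the restricted members, Psmc3ip, the called genes and the extremes. From each related list, called genes were named, or the 2 of highest level where none was called, and other names were chosen after their values were seen. Intervals of fold changes include the spread between libraries, and the floor for a count of 0 covers counting error only. Levels per kilobase were also computed with the union of annotated exons as length, an alternative chosen after seeing the data.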

Additional observations from a re-analysis of the deposited data

How the results depend on the processing

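Both particle medians kept their sign in all alternatives but scaling to CD3 counts, where they were -0.592 (core) and -0.565 (regulatory), with 0 core and 0 regulatory genes called higher and 1 regulatory gene (Psmd6, -0.93, adjusted p = 0.034) called lower. That scaling also turned Psma7 (-0.43), Psmb1 (-0.32), Psmb5 (-0.36), Psmb6 (-0.67), Psmb7 (-0.69), Psmc5 (-0.54), Psmd2 (-0.71), Psmd4 (-0.54), Psmd8 (-0.28), Rps27a (-0.28) and Ube2r2 (-0.32) below 0. The count of core genes called higher, 1 with edgeR, was 0 without the filter on low counts, 2 with DESeq2, 3 at an adjusted p under 0.1 and 0 when a log2 fold change above 1 was also required, which left 0 regulatory genes too. The share of all genes at an adjusted p under 0.1 was not computed, so nothing is read from the 3 core genes there. Leaving out 1 library gave 0 core genes called higher in all 6 fits and 0 to 1 regulatory genes, core medians of 0.096 to 0.152 and regulatory medians of 0.065 to 0.168. Psmd2 turned to -0.0096 with library totals, and leaving out 1 library gave it -0.032 to 0.077 and Psmb7 -0.017 to 0.076. Over all genes, calls were 1022 higher and 1399 lower, against 135 and 4678 with scaling to CD3 counts, 1634 and 2024 with DESeq2, 763 and 1608 with library totals, and 182 to 1171 and 503 to 1780 with 1 library left out. The labels do not say that a replicate number marks a shared animal, litter or day, and same-numbered libraries did not deviate together (correlations of -0.245, -0.083 and -0.095). With a replicate block, 0 core and 0 regulatory genes were called higher (173 higher and 437 lower over all genes), and the calls of Psme4 (adjusted p = 0.14), Rps27a (0.12) and Ube2r2 (0.10) were lost. The cause of these differences was not tested. The median SE of the subunit genes was 0.11 on the log2 scale, against 0.216 for all tested genes, which sets the precision of these fold changes.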
